A study of Mus musculus with 8 samples.

Results

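Promoters that carried H3K4me3 in wild-type (wt) PILECs and little or none in wt mESCs were collected from 4 H3K4me3 ChIP-Seq libraries of mouse cells. PILECs, short for pancreatic islet-like endocrine cells, were obtained in culture from mouse embryonic stem cells (mESCs) by way of embryoid bodies. A promoter was the 2-kb window that reached 1 kb to either side of the annotated 5' end of a protein-coding gene on an autosome (mm9). It was selected when it held at least 6 tags per 1000000 tags of the library (RPM) in wt PILECs and at most 2.5 RPM in wt mESCs. These limits chose 97 of 21418 promoters (0.453%), and 0.855% of the 11351 promoters with at least 6 RPM in wt PILECs. The 97 entries carried 95 gene symbols and fell into 95 separate loci on 18 chromosomes. Hoxa3 was listed under 2 gene identifiers with starts 3 bp apart, whose values are the same tags, and 2810055G20Rik under 2 identifiers with separate windows.

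The cells were wt mESCs of the line TC-1, menin-null mESCs (Men1-ko) of the line 3.2N, and the PILECs derived from each, all with the genetic background 129S6/SvEvTac. Each genotype was a single line, and each kind of cell was sequenced once for H3K4me3 and once as input chromatin, which made 8 libraries without replicates. The mESCs had been kept on irradiated embryonic fibroblasts and were freed of these feeder cells before use, and the PILEC cultures were not sorted. H3K4me3 tags numbered 2432377 for wt and 3517028 for menin-null mESCs, and 18773635 for wt and 17682677 for menin-null PILECs, and the inputs held 3744616 to 19016697. Intervals are 95% exact intervals that cover counting error only, and with 1 library per condition every ratio compares libraries and not conditions.

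Trimethylation of lysine 4 of histone H3 sits at the starts of genes that are transcribed or ready to be, and is written by COMPASS-like methyltransferase complexes. Menin, the product of Men1, is a subunit of the complexes that hold MLL1 or MLL2. Promoters rich in CpG commonly carry the mark in embryonic stem cells whatever the gene does, while CpG-poor promoters of tissue-restricted genes tend to gain it as the gene is switched on.

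The 250 bases upstream of the selected starts held 0 to 20 CpG dinucleotides, with a median of 5, beside a median of 17 upstream of the 11254 promoters over both limits (at least 6 RPM in wt PILECs and over 2.5 RPM in wt mESCs) and of 9 upstream of all promoters. The bases that end at the base before the annotated 5' end are given for 5 genes, namely the strongest promoter, 3 further genes with clear marks in PILECs of both genotypes, and the collagen gene Col3a1. They were read from mm9 on the strand of the gene, and none overlapped an annotated exon. Capitals mark CpG dinucleotides.
2610203C20Rik, chr9:41388574-41388823, + strand: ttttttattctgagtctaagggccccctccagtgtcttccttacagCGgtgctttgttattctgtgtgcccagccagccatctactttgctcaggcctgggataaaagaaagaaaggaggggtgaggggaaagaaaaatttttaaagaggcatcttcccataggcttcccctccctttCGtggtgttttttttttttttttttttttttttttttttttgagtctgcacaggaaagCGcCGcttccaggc
Celf3, chr3:94282503-94282752, + strand: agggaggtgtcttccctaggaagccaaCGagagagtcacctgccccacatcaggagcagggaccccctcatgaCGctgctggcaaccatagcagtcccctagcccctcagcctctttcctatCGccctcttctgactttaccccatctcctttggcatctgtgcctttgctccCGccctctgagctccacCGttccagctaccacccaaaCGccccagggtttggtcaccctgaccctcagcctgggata
Gpm6a, chr8:56039831-56040080, + strand: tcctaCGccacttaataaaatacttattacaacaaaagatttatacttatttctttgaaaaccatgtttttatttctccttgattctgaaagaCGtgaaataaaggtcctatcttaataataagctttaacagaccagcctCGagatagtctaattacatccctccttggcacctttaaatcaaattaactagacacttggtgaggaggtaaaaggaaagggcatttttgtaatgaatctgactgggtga
Lrrn3, chr12:42212339-42212588, - strand: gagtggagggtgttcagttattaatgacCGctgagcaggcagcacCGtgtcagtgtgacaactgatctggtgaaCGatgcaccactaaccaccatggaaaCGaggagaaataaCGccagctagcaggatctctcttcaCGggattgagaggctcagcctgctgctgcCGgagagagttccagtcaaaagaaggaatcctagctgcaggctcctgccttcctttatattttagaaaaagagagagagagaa
Col3a1, chr1:45368133-45368382, + strand: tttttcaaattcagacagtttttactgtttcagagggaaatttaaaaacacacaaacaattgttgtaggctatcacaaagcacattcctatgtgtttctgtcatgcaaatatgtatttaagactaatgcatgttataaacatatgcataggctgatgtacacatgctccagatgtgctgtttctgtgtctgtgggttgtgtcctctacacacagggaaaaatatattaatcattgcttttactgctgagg
These stretches held 4 CpG dinucleotides at 2610203C20Rik, 6 at Celf3, 3 at Gpm6a, 7 at Lrrn3 and 0 at Col3a1, and Cntnap2 was among those with more, at 13.

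Upstream of some of the selected Hox genes a run of 11 letters, GAAAATTTACA, recurred. It is the longest run that the 250 bases upstream of Hoxb6, Hoxc6 and Hoxd3 share, it was looked for after these sequences had been seen, and it was then searched on both strands in the 250 bases upstream of every promoter. It was found at 9 of 21418 promoters (0.042%) and at 0 of the 11254 promoters over both limits. Of the 9, 5 were selected entries, namely Hoxb6, Hoxc6, Hoxd3 and both entries of Hoxa3, which share their sequence. Hoxb6, Hoxc6 and Hoxd3 were bound to hold the run because it was taken from them, so these counts are a description and not a test. The run is shown in capitals with 40 bases to either side for Hoxc6 and Hoxd3, where this stretch overlapped no annotated exon.
Hoxc6, chr15:102828500-102828590, + strand: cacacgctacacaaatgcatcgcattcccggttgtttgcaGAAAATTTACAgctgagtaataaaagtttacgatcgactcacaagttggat
Hoxd3, chr2:74549817-74549907, + strand: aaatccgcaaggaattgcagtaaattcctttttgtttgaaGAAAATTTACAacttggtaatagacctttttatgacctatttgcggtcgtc
It began 148 bases before the start of Hoxc6 and 129 before that of Hoxd3, on the gene's strand in each.

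In wt cells the selected promoters ran from 6.02 to 42.5 RPM in PILECs, with a median of 9.75, and from 0 to 2.47 RPM in mESCs, with a median of 1.23. These values chose the promoters and are given as a description. The selected promoters were weakly marked for PILECs: 94 of 97 lay under 22.6 RPM, the lower quartile of the 11254 promoters over both limits, whose median was 33.7 RPM. The shallow wt mESC library put 0 to 6 tags on each selected promoter, and 7 of them held 0 tags, for which a limit of 3 tags (1.23 RPM) was taken. At the 90 with at least 1 tag, the upper end of the Poisson interval in wt mESCs passed 2.5 RPM at 84 and stayed under 6 RPM at all. Input RPM matched or passed H3K4me3 RPM in wt mESCs at 49 of 97, whereas in wt PILECs H3K4me3 was at least 3.47 times the input at every selected promoter, with a median of 9.81 times.

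**Figure D1:**
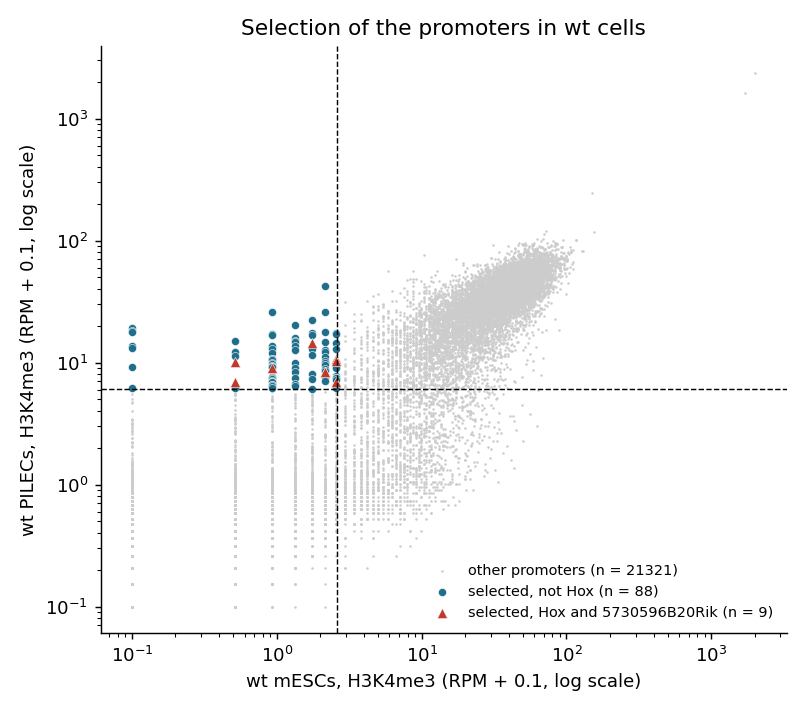
H3K4me3 at 21418 promoters in wt mESCs (x axis) and wt PILECs (y axis), each as RPM with 0.1 added, on log scales, with dashed lines at the limits of 2.5 and 6 RPM. The 97 selected promoters fill the upper left corner by construction, with most of them between 6.02 and 20 RPM in PILECs, below the cloud of promoters marked in both cells.

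Close to the limits the selection turned on a few tags. Just inside the PILEC minimum lay Bco2, a carotenoid oxygenase, at 6.02 RPM, and Urm1 and Cc2d2a at 6.13 RPM, and just outside it lay Ano4 and Dlg4 at 5.97 RPM and Tmem176b at 5.65 RPM. At the mESC limit 18 selected promoters held 6 tags (2.47 RPM), Ntng1, A830031A19Rik and Lrp1b among them. A single tag more, or 2.88 RPM, kept out 20 promoters, of which Zfhx4, Lrrtm1 and Srrm3 had the highest PILEC values, from 16.4 to 31.4 RPM.

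A window with few mESC tags did not always lie in a neighbourhood without the mark. Within 4 kb of the selected starts, 27 of 97 had a 2-kb window with at least 6 RPM in wt mESCs, 22 of them outside the Hox clusters, and 53 had none over 2.5 RPM. Such neighbouring windows reached 44.4 RPM at Zfp238 and 41.9 RPM at Kdm6b, which encode a zinc finger repressor and a demethylase of lysine 27 of histone H3, and 40.3 RPM at Rusc1. Of 42 selected genes with another annotated start over 2 kb away, 18 had over 2.5 RPM there in wt mESCs, with 53.9 RPM at Urm1, 28.4 at Rusc1 and 27.1 at Sall2. Neither a window over 2.5 RPM within 4 kb nor another such start was found in wt mESCs at 45 of the 97, Celf3, Stmn4, Gpm6a, Lrrn3 and Mapk10 among them. These counts were made at the selected promoters only, so no share over all promoters stands beside them.

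The selected genes were sorted by what they are known to do. The groups named from here on were drawn up after the genes had been seen, so their sizes are descriptions. They comprised 15 cell adhesion and axon guidance proteins of neurons, 19 neuronal and glial proteins inside the cell, in vesicles or in channels, 8 G protein-coupled receptors, 11 transcription and chromatin regulators other than Hox, 7 secreted or matrix proteins and matrix receptors, 28 others, and 9 entries of the Hox clusters. The last were 8 entries of 7 Hox genes and 5730596B20Rik, a gene annotated as protein-coding within the HoxA cluster.

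Few of the selected genes were in the marker lists. Of 16 lists, 13 held 0 selected promoters, the list of neural genes among them: 16 of its 23 promoters were over both limits, since they carried the mark in wt mESCs as well. The islet list of 22 hormone and secretion genes held 1, Scg5, a chaperone of prohormone convertase, and the list of 37 matrix and fibroblast genes held 2, Col3a1 and the mesenchymal homeobox gene Prrx1. The islet hormone promoters themselves were low in wt PILECs, with 0.21 RPM at Ins1, 0.43 at Ins2, 0.37 at Gcg, 1.28 at Sst and 0.69 at Iapp. Over both limits were 6 of the 22 promoters of hormone and secretion genes and 7 of 15 promoters of islet transcription factors. Among the latter Neurod1 had 7.03 RPM in wt PILECs and 6.58 in wt mESCs, while Pdx1 had 1.07 and 7.40 RPM in the same order. Promoters of the pluripotency genes Pou5f1 and Nanog held 55.9 and 33.3 RPM in wt mESCs and 3.68 and 2.56 RPM in wt PILECs. The annotated 5' end of Esrrb, another pluripotency gene, held 0.41 RPM in wt mESCs and 1.01 in wt PILECs. These values describe 1 start and not any other start of the gene. Of the 19 promoters in the pluripotency list 5 were over both limits, and 7 had at least 6 RPM in wt mESCs and at most 2.5 in wt PILECs. The neuronal tubulin gene Tubb3 held 18.1 RPM in wt mESCs and 48.7 in wt PILECs. The glial gene Gfap held 1.17 RPM in wt PILECs. In such mixed cultures fewer cells with a mark and less mark per cell cannot be told apart.

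Whether the gain of the mark on differentiation also took place without menin was asked in the pair of menin-null libraries, which the selection had not used. A promoter was called when the 2 libraries differed by at least 2-fold and the interval of the ratio lay on that side of 0 on the log2 scale. For the ratio, but not for its interval, 1 tag was added to each count. Menin-null PILECs were called higher than menin-null mESCs at 78 of 97 selected promoters (80.4%), beside 3.03% of all 21418 promoters and 3.9% of those over both limits. They were called lower at 3 of 97, beside 15.2% of all promoters. The median log2 ratio was 2.13 over the selected promoters, -0.29 over promoters over both limits and -0.35 over all. With the 6 promoters that held 0 tags in menin-null mESCs set to the limit of 3 tags, the median stayed at 2.13. It could not move, since the ratios of these 6 lay above it either way.

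The Hox entries and the other promoters differed in this gain. Outside the Hox clusters 78 of 88 promoters (88.6%) were called higher in menin-null PILECs, and of the 9 Hox entries 0 were called higher and 3 were called lower. Over all promoters 3.03% were called higher and 15.2% lower. By group, 15 of 15 neuronal adhesion and guidance genes were called higher, 17 of 19 other neuronal and glial genes, 7 of 8 receptors, 11 of 11 transcription and chromatin regulators, 6 of 7 secreted and matrix genes and 22 of 28 others. The 10 promoters outside the clusters that were not called higher had log2 ratios from -0.31 to 0.99, and those of Lrrk2, Cend1, Efemp1, Rsph9, Lig1, 1700008O03Rik, Hist1h4b, Urm1 and Bco2 were among them.

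**Figure D2:**
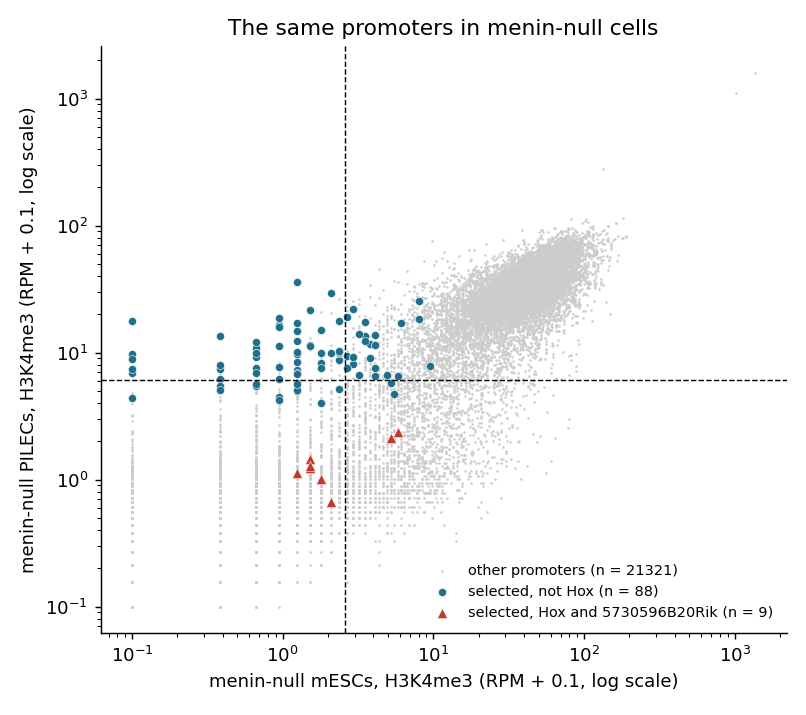
The same 21418 promoters in menin-null cells, mESCs on the x axis and PILECs on the y axis, as RPM with 0.1 added on log scales, with dashed lines at 2.5 and 6 RPM. Of the 88 selected promoters outside the Hox clusters (circles) 73 lie above the line at 6 RPM, and the 9 Hox entries (triangles) lie at 0.57 to 2.26 RPM, below every circle.

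The menin-null libraries were also held against the limits themselves. In menin-null PILECs 73 of 97 (75.3%) held at least 6 RPM, beside 97.7% of promoters over both limits and 52.0% of all promoters. All 73 were outside the Hox clusters. In menin-null mESCs 67 of 97 (69.1%) held at most 2.5 RPM, beside 39.3% of all promoters. Of promoters under 6 RPM in wt PILECs with at most 2.5 RPM in wt mESCs, 97.6% did. Of the 97 selected promoters 6 were called higher in menin-null than in wt mESCs, where 0.49% of all promoters were called higher. None was called lower, where 0.654% were. The selection had required low values in wt mESCs, so nothing is read from these counts. Both limits were met in the menin-null libraries by 47 of 97 selected promoters and by 71 promoters in all, of which 17 were over both limits in wt cells and 7 were under 6 RPM in wt PILECs. The promoters shared by both genotypes were thus 48.5% of those selected in wt cells and 66.2% of those that the same limits choose in menin-null cells.

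The neuronal adhesion genes were each called higher in menin-null PILECs, and their tags are given with the PILEC libraries 5.03 to 7.72 times as deep as the mESC libraries of the same genotype. At Lrrn3, which encodes a leucine-rich repeat protein of the neuronal surface, 2 tags fell in wt mESCs, 317 in wt PILECs, 0 in menin-null mESCs and 310 in menin-null PILECs. Menin-null PILECs, at 17.5 RPM, were 20.6-fold higher than the limit of 3 tags taken for menin-null mESCs, and the exact interval of this log2 ratio started at 4.05, which is the lower of the 2 bounds. The promoter of Gpm6a, a membrane glycoprotein of neurons, held 0 tags (0 RPM) in wt mESCs, 341 (18.2 RPM) in wt PILECs, 3 (0.853 RPM) in menin-null mESCs and 288 (16.3 RPM) in menin-null PILECs. In RPM both PILEC libraries stood far above both mESC libraries at these genes, and the PILEC libraries of the 2 genotypes were close to each other. Cntnap2, a neurexin-family adhesion protein, held 1, 282, 10 and 390 tags in the same order, with a log2 ratio of 2.82 (interval 2.06 to 4.03) of menin-null PILECs over menin-null mESCs. Neto1, an auxiliary subunit of glutamate receptors, and Dcc, the netrin receptor, had the highest wt PILEC values of the group and differed in menin-null mESCs. Neto1 held 7.96 RPM in menin-null mESCs and 25.2 in menin-null PILECs, and Dcc held 1.71 and 15.1 RPM. The log2 ratios of the 14 genes with tags in menin-null mESCs ran from 1.44 at Lrp1b to 4.56 at Pcdh9 (interval 3.06 to 10.9), where menin-null mESCs held 1 tag.

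Among the other neuronal and glial genes Celf3, a splicing regulator of neurons, was the strongest. It held 2 tags (0.82 RPM) in wt mESCs, 483 (25.7 RPM) in wt PILECs, 7 (1.99 RPM) in menin-null mESCs and 521 (29.5 RPM) in menin-null PILECs. Stmn4, a stathmin that acts on microtubules, held 0, 331, 3 and 329 tags in the same order. Neither gene had a mESC library that came near a PILEC library. Mapk10 and Akap6, which encode a neuronal stress kinase and an anchoring protein, had 0 tags in menin-null mESCs, and the PILECs of that genotype were 11.3-fold and 10.3-fold above the limit of 3 tags, with exact intervals of the log2 ratio that started at 3.18 and 3.06. Lrrk2, a kinase mutated in Parkinson disease, was not called, with 3.98 RPM in menin-null mESCs, 6.45 RPM in menin-null PILECs and a log2 ratio of 0.61 (interval -0.11 to 1.61). For the glial fatty acid binding protein gene Fabp7 the values were 1.14 and 7.24 RPM, and the ratio was 2.36 (interval 1.28 to 4.57).

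The transcription and chromatin regulators were each called higher, and so were 6 of the 7 secreted and matrix genes. Nr2f2, the nuclear receptor COUP-TFII, held 2 tags in wt mESCs, 222 in wt PILECs, 2 in menin-null mESCs and 211 in menin-null PILECs. Prrx1 held 5, 234, 2 and 162 tags in the same order, and Myt1l, a zinc finger factor of neurons, held 4, 148, 3 and 135. Log2 ratios of menin-null PILECs over menin-null mESCs of the 11 regulators ran from 1.36 at Ikzf2 to 3.81 at Nr2f2. Some of these starts lay close to a mark in wt mESCs. The highest 2-kb window within 4 kb held 23.4 RPM there at Ikzf2, 10.7 at Nr2f2, 4.11 at Prrx1 and 2.06 at Myt1l. Such windows also passed 6 RPM at Zfp238, Kdm6b, Hes7 and Prdm8. Stc1, the secreted hormone stanniocalcin, held 4, 417, 5 and 383 tags. Col3a1, a fibrillar collagen, held 1, 115, 0 and 76 tags, and its PILEC mark in menin-null cells was 5.04-fold above the limit of 3 tags, with an exact interval of the log2 ratio that started at 2.00. Efemp1, an extracellular matrix glycoprotein, differed from them, with 5.40 RPM in menin-null mESCs and 4.64 RPM in menin-null PILECs, and its log2 ratio of -0.28 had an interval from -0.95 to 0.58.

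Among the receptors Gpr37 and Oprl1, the latter the receptor for nociceptin, held 326 and 129 tags in wt PILECs and 323 and 175 in menin-null PILECs. Gipr, the receptor through which the gut hormone GIP acts on beta cells, rose from 1.14 RPM in menin-null mESCs to 5.54 RPM in menin-null PILECs, a log2 ratio of 1.98 (interval 0.88 to 4.19). Of the remaining genes 2610203C20Rik was the most strongly marked selected promoter in PILECs of either genotype, with 42.5 RPM in wt and 35.7 RPM in menin-null PILECs beside 2.06 and 1.14 RPM in the mESCs. Lig1, the DNA ligase of replication, had the highest value of the selected promoters in menin-null mESCs, 9.38 RPM, and 7.75 RPM in menin-null PILECs, so that its log2 ratio was -0.31 (interval -0.83 to 0.32). It was followed in menin-null mESCs by Neto1 and Gpr37 at 7.96 RPM, Ntng1 at 5.97 RPM, and 1700008O03Rik and Hoxd3 at 5.69 RPM each.

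The level of the mark in PILECs with and without menin was then set side by side. The wt PILEC library had chosen the promoters, so these ratios are a description. Menin-null PILECs were called lower than wt PILECs at 9 of 97 selected promoters, where 1.08% of all promoters and 0.498% of those over both limits were called lower, and the 9 were the 9 Hox entries. None was called higher, where 1.17% of all promoters and 1 of the 11254 over both limits (0.00889%) were. At all 88 promoters outside the Hox clusters the ratio stayed within 2-fold. The median log2 ratio was -3.08 over the Hox entries, -0.15 over the other 88 promoters, -0.09 over promoters over both limits and -0.05 over all promoters. The gap between the lowest promoter outside the clusters, that of the matrix protease gene Adamts6 at -0.93 (interval -1.33 to -0.56), and the highest Hox entry, Hoxd3 at -2.19 (interval -2.74 to -1.72), held no selected promoter.

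**Figure D3:**
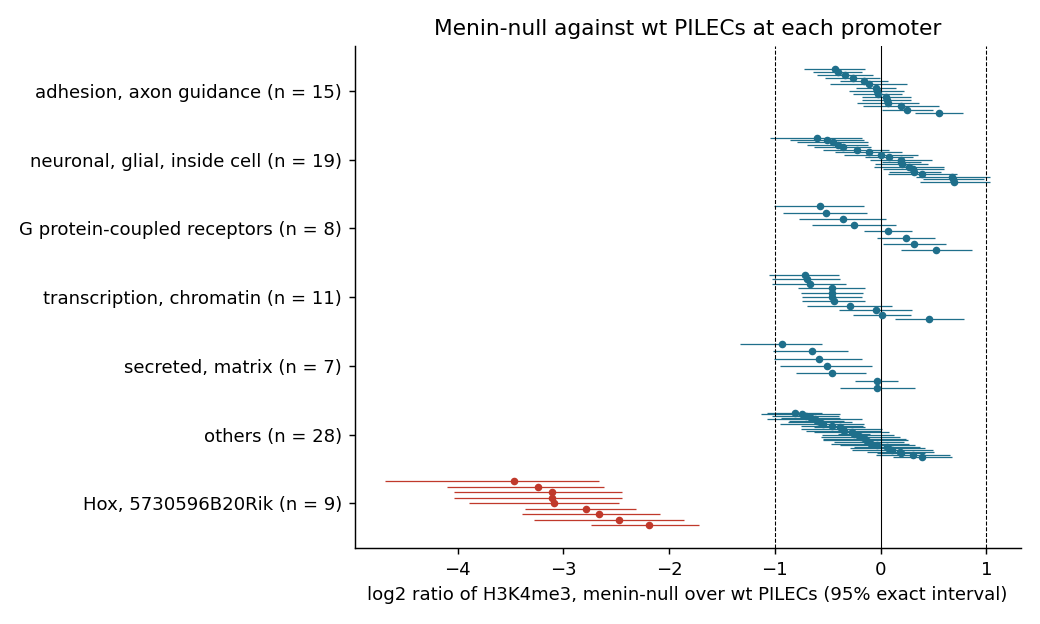
Log2 ratio of H3K4me3 in menin-null over wt PILECs (x axis) at each of the 97 selected promoters, grouped by what the gene does, with 95% exact intervals as bars and dashed lines at a 2-fold difference. The 9 Hox entries lie between -3.47 and -2.19, and the other 88 lie between -0.93 and 0.70.

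Outside the Hox clusters the groups were set side by side without a test of their difference. Medians of the log2 ratio were 0.19 for neuronal and glial genes, -0.04 for neuronal adhesion and guidance genes, -0.09 for receptors, -0.23 for the others, -0.46 for transcription and chromatin regulators and -0.50 for secreted and matrix genes. Of the 88 promoters 57 had lower RPM in menin-null PILECs, beside 71.2% of promoters over both limits. The interval lay below 0 at 34 of 88 (38.6%), beside 32.6% of promoters over both limits and 18.9% of all, and above 0 at 13 of 88 (14.8%), beside 5.51% and 4.50%. Among the highest ratios were those of Bzrap1 at 0.70, Caly at 0.69, Cntnap2 at 0.55 and Oprl1 at 0.52, genes of the synapse, of vesicles, of axons and of nociceptin signalling. The lowest of these 4, Oprl1, had an interval from 0.19 to 0.87 and that of Bzrap1 ran from 0.37 to 1.03, and the intervals of all 4 lay above 0.

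At the 8 entries of Hox genes, which encode the homeodomain factors of the body axis, the mark fell from between 6.87 and 14.3 RPM in wt PILECs to between 0.90 and 2.26 RPM in menin-null PILECs, and at 5730596B20Rik it fell from 6.82 to 0.57 RPM. Hoxb7 held 4 tags in wt mESCs, 269 in wt PILECs, 18 in menin-null mESCs and 36 in menin-null PILECs. Hoxb6 held 6, 190, 4 and 18 tags in the same order, and Hoxb2 held 1, 188, 5 and 20. The wt PILEC library was the highest at these 3 genes, and the next, menin-null mESCs at Hoxb7, had 5.12 RPM against 14.3. Hoxd3 held 6, 197, 20 and 40 tags, Hoxc6 held 6, 129, 5 and 21, and Hoxa6 held 2, 167, 5 and 24. Both entries of Hoxa3 held 5, 155, 6 and 16 tags, and their windows overlap that of Hoxa6, so that these 3 of the 9 entries belong to 1 locus and share tags. The promoter of 5730596B20Rik held 1, 128, 7 and 10 tags. The wt PILEC library was again the highest at each, with menin-null mESCs at Hoxd3 next, at 5.69 RPM against 10.5. Their log2 ratios of menin-null over wt PILECs were -2.78 (interval -3.36 to -2.31) at Hoxb7, -3.24 (interval -4.10 to -2.61) at Hoxb6, -3.08 (interval -3.89 to -2.48) at Hoxb2 and -3.47 (interval -4.69 to -2.67) at 5730596B20Rik. H3K4me3 RPM over input RPM at the 9 entries ran from 6.35 to 14.3 in wt PILECs and from 0.512 to 3.69 in menin-null PILECs. The annotated start used for Hoxa3 lay upstream of those of Hoxa4, Hoxa5 and Hoxa6, and that of Hoxd3 upstream of that of Hoxd4. Other annotated starts over 2 kb away held up to 8.63 RPM in wt mESCs at Hoxd3, 6.58 at Hoxa3 and 3.29 at Hoxc6. The values of these genes thus describe the window used and not every promoter of the gene.

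Within the menin-null libraries 0 of the 9 Hox entries were called higher in PILECs than in mESCs, where 3.03% of all promoters were. They were called lower at Hoxb7, with a log2 ratio of -1.37 (interval -2.18 to -0.43), at Hoxd3, with -1.36 (interval -2.14 to -0.48), and at 5730596B20Rik, with -1.87 (interval -3.36 to -0.19). Over all promoters 15.2% were called lower. These calls depended on scaling: scaling to tags in promoters would add 0.37 to each ratio, and none of them would then pass. At the other 6 entries the interval held 0. The 39 Hox genes had 40 promoters, of which 8 were selected (5730596B20Rik is not among these genes), 8 were over both limits, 9 were under 6 RPM in wt PILECs with at most 2.5 RPM in wt mESCs, and 15 were under 6 RPM with more than that in wt mESCs. In all 21 of the 40 were called lower in menin-null than in wt PILECs and 0 were called higher, beside 1.08% and 1.17% of all promoters. Of the 8 over both limits 2 were called lower, Hoxb9 at -2.37 and Hoxc9 at -2.60, and of the 9 low in both cells 6 were.

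The mark lay mostly downstream of the selected starts. The run of 5 adjoining bins of 100 bp with the most tags was searched within 5 kb. Its centre was at most 1 kb downstream at 58 of 97 promoters in wt PILECs and at 61 in menin-null PILECs. This centre had a median position of 350 bp downstream in each. It was upstream of the start at 16 promoters in wt and 15 in menin-null PILECs, and over 1 kb away on either side at 28 in each. The centre was not located at other promoters, so its position is not held to be particular to the selected ones. Averaged over the 88 promoters outside the Hox clusters, the mark reached 10.9 RPM per kb in wt PILECs and 10.4 RPM per kb in menin-null PILECs, both in the bin 150 bp downstream. The mESC profiles, of which that of wt mESCs was kept low near the start by the selection, reached at most 2.48 RPM per kb in wt mESCs and 2.84 RPM per kb in menin-null mESCs. Over the 9 Hox entries wt PILECs reached 9.59 RPM per kb, in the bin 550 bp downstream, and menin-null PILECs reached 2.14 RPM per kb. The mESC profiles over these entries reached 5.02 RPM per kb in wt and 4.42 RPM per kb in menin-null mESCs, both above menin-null PILECs, in the bins at -4450 bp and -1750 bp from the start. Each maximum is a single bin of 100 bp, which carries more counting error in the shallower mESC libraries, and Hoxa3 enters the average under both of its identifiers.

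**Figure D4:**
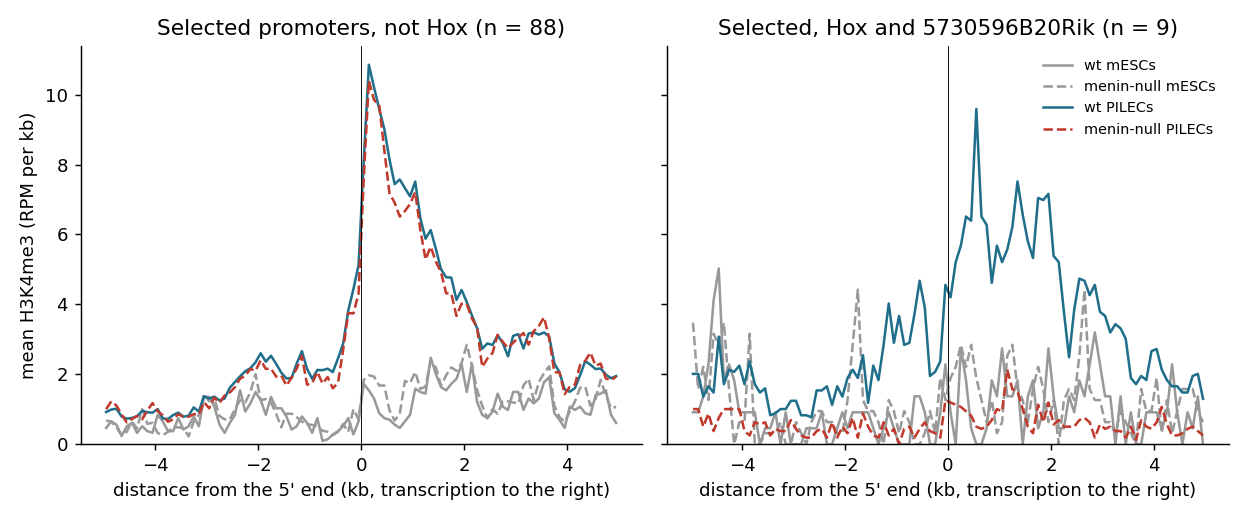
Mean H3K4me3 in RPM per kb (y axis) in bins of 100 bp from 5 kb before to 5 kb after the annotated 5' end (x axis), for the 88 selected promoters outside the Hox clusters (left) and the 9 Hox entries (right). On the left the PILEC lines of both genotypes run together and peak at 10.9 and 10.4 RPM per kb, and on the right the menin-null PILEC line stays at or below 2.14 RPM per kb.

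The selected promoters were poor in CpG, a property that the selection did not use. The observed number of CpG dinucleotides over that expected from the C and G content of the 2-kb window had a median of 0.361, beside 0.650 for promoters over both limits, 0.475 for all promoters and 0.181 for promoters under 6 RPM in wt PILECs with at most 2.5 RPM in wt mESCs. The 555 promoters with at least 6 RPM in wt mESCs and at most 2.5 RPM in wt PILECs were low too, with a median of 0.422 and 10.6% of them at 0.6 or more. The ratio was at least 0.6 at 2 of 97, Neto1 and Hoxd3, beside 63.1% of promoters over both limits and 34.5% of all promoters. It was under 0.3 at 29 of 97 (29.9%), beside 0.835% of promoters over both limits, 34.7% of all promoters and 84.0% of promoters low in both cells. A weak mark went with less CpG there too: the 2813 promoters over both limits with under 22.6 RPM in wt PILECs had a median of 0.562, and 39.8% of them reached 0.6. Among the selected genes the Hox entries had a median of 0.515 and the neuronal and glial genes 0.294. The G+C content was 47.9% at the median selected promoter and 54.9% over both limits.

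**Figure D5:**
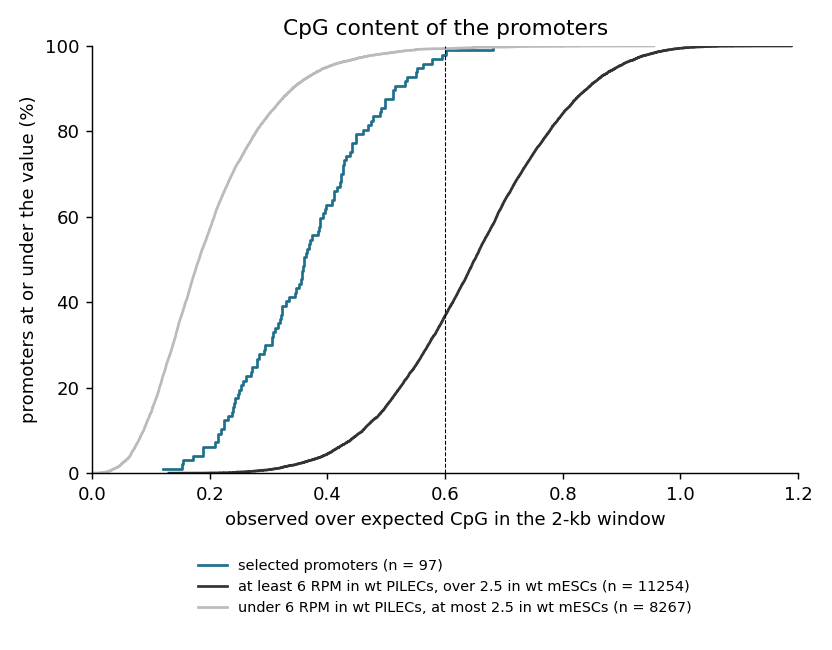
Share of promoters in percent (y axis) at or under each observed over expected CpG ratio of the 2-kb window (x axis), for the 97 selected promoters, the 11254 promoters over both limits and the 8267 promoters low in wt mESCs and wt PILECs, with a dashed line at 0.6. The curve of the selected promoters, with a median of 0.361, runs between those with medians of 0.181 and 0.650.

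Short promoter motifs were counted in the stretch from 250 bases before to 50 bases after the start, on both strands. The letters TATAAA were present at 15 of 97 selected promoters (15.5%), at 13.5% of all promoters and at 6.06% of those over both limits, and Gpm6a and Col3a1 were among the 15. GGGCGG, the core of the GC box, was present at 25 of 97 (25.8%), at 43.7% of all promoters and at 68.4% of those over both limits. The letters TTCAGCACC, the first part of the element bound by the neuronal gene repressor REST, were searched in the whole 2-kb window on both strands. They were present at 8 of 97 (8.25%), at 3.09% of all promoters and at 3.19% of those over both limits. The 8 were Wdr17, Gpr37, Cntnap2, Slitrk1, Nsg2, Disp2, Col3a1 and Bco2. These matches describe letters in a window and say nothing of binding.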

How the data were processed

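H3K4me3 and input ChIP-Seq was done on wt and menin-null mESCs and PILECs, 1 library each. The deposited files hold 1 line per tag with its mm9 position and an alignment score, which was not used. By the authors' methods a tag (read length 36 bp) needed a single place in the genome and 2 mismatches or fewer. Deposited tag positions are unnormalized, so counts here are counts of tags. Tags listed with more mismatches, 1.04% to 1.81% of a library, were kept. Each tag was moved 125 bp from its 5' end and counted within 1 kb of the 5' end of each gene in GENCODE vM1 (NCBIM37, which is mm9), with Python 3.11.15, numpy 2.4.6, pandas 2.3.3, scipy 1.17.1 and matplotlib 3.10.9. RPM is tags per 1000000 tags of the library, duplicates included (4.15% to 11.4% of H3K4me3 tags). Ratios had 1 tag added to each count and exact conditional binomial (Clopper-Pearson) limits, single counts exact Poisson limits, and a count of 0 allows 3 tags. The binomial limits are those of the ratio without the added tag, so at low counts a printed ratio can lie off the centre of its interval. The calling script was tested on simulated data. It found 200 of 200 promoters changed 3-fold in each comparison. With no difference simulated, it called 150 of 21418 promoters in either direction for menin-null PILECs over menin-null mESCs. For menin-null over wt PILECs it called 201. The shares called over all promoters therefore include calls from counting error. The selected promoters, groups and lists were chosen with earlier results of these data known. Genes named were those with the highest or lowest values of each measure, those nearest the limits and those in the lists, with further examples chosen after their values were seen. Alternatives changed duplicates, tag position, window, mismatches, scaling, input, depth, start, limits, fold, copy-number regions and shared windows. The regions set aside for copy number were chromosome 8 and parts of chromosome 12. They held 3 selected promoters, Gpm6a, Wdr17 and Sorbs2, all on chromosome 8. The expression data of the study were not used here, and a few genes and sequences are not reported here.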

Additional observations from a re-analysis of the deposited data

Results flagged for a closer look

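Hoxb7 went opposite ways in the 2 kinds of cells. Menin-null over wt, its log2 ratio was 1.39 in mESCs (interval 0.04 to 3.66, 18 tags against 4) and -2.78 in PILECs (interval -3.36 to -2.31, 36 tags against 269). Both differences passed the call, and it was the single selected promoter called on opposite sides. The difference between them was not tested, each value rests on 1 library per condition, and the low count of 4 tags in wt mESCs is part of what selected the promoter. The mESC call also depended on scaling. Tags in promoters were 41.1% of the wt and 49.2% of the menin-null mESC library, and scaling to them would take the mESC interval across 0. Groups of 1 library gave no spread in which a sample could stand apart.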

How the results depend on the processing

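No paired analysis was possible because each condition had 1 library. The number of promoters selected went from 97 to 158 with input subtracted, to 19 with limits of 10 and 1 RPM and to 161 with limits of 4 and 2.5 RPM. Other ways of counting tags gave 85 to 108, but not the same promoters: windows of 500 bp shared 42 of the 97, windows of 2 kb either side 57. The 78 called higher in menin-null PILECs than in menin-null mESCs became 18 of 19 with limits of 10 and 1 RPM, and 69 to 83 of 97 under the counting, scaling, start and input settings. The median of that ratio, 2.13, became 3.59 with input subtracted, 1.86 at the start with the most tags, 3.67 with limits of 10 and 1 RPM and 1.76 with limits of 4 and 2.5 RPM. Scaling to tags in promoters raised all ratios of menin-null PILECs over menin-null mESCs by 0.37. The 9 called lower in menin-null than in wt PILECs became 6 without windows shared with another gene, 1 with limits of 10 and 1 RPM and 16 with limits of 4 and 2.5 RPM, of which 12 were of the Hox clusters and 4 were Cd274, Nhlh2, Ptn and 5033414D02Rik, and 12 when PILEC libraries were thinned to mESC depth. After the data were seen, leaving out promoters near an mESC mark gave 4, and leaving out the Hox entries gave 0. The 0 called higher became 1, Bzrap1, with input subtracted, where calls rested on fold alone. The median of menin-null over wt PILECs, -0.25, turned to 0.0134 with limits of 10 and 1 RPM. Promoters at or under 2.5 RPM in menin-null mESCs, 67, became 16 of 19 and 110 of 161 under the other limits, and those with at least 6 RPM in menin-null PILECs, 73, became 35 in windows of 500 bp and 18 of 19 with limits of 10 and 1 RPM. No ratio of menin-null over wt PILECs at a named Hox entry changed sign, and ratios of menin-null PILECs over menin-null mESCs were not recomputed gene by gene. The 2432377 tags of the wt mESC library set the precision of the mESC limit, where 1 tag decides.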
